A study of Homo sapiens with 6 samples.

Results

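The genes described are 10 members of the Wnt pathway that Cal27 carcinoma cells transcribe or that are commonly read as its output: the ligands WNT4, WNT5A, WNT5B, WNT7A, WNT7B and WNT10A, the receptor FZD6, the secreted antagonists DKK1 and DKK3, and the feedback gene AXIN2. They were taken by gene symbol, and all 10 were found among the 18678 genes of the table. The tested cells were Cal27-shGRK2, which is Cal27 with a short hairpin RNA against GRK2, a kinase known for shutting off G protein-coupled receptors once they are active. They were compared with Cal27, an established human line of tongue squamous carcinoma. Both were grown in serum-containing medium and collected before confluence, and stranded mRNA libraries were sequenced. The labels do not say whether Cal27 carried a control hairpin, nor how many hairpins or clones were used.

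The labels name 3 libraries per group, but replicates 0 and 1 of Cal27-shGRK2 hold the same value in each of the 18678 genes and were taken as 1 library. This leaves 2 Cal27-shGRK2 libraries and 3 Cal27 libraries. Nothing in the labels says that replicates were separate cultures, so the p-values cover only the spread among these libraries, which may be technical. Levels are FPKM, fragment counts scaled by transcript length and by library size, and the depth behind them is unknown. GRK2 itself (listed as ADRBK1) was at 17.3 and 16.6 FPKM in Cal27-shGRK2 and at 55.3, 59.4 and 55.8 FPKM in Cal27, with a log2 fold change of -1.69 ± 0.06 (SE, limma adjusted p = 3.8e-11). All 7 squamous epithelial markers chosen as a check had values, with a summed level of 1427 to 1447 FPKM in Cal27-shGRK2 and 2814 to 3122 FPKM in Cal27. The keratin KRT5 carried most of that difference, with 740 and 773 FPKM in Cal27-shGRK2, against 2167, 2322 and 2073 FPKM in Cal27. The basal keratin KRT14 was at 0.235 and 0.16 FPKM in Cal27-shGRK2, against 19.3, 20.9 and 16.5 FPKM in Cal27. TP63, SFN and DSP were lower too. TP63 had 10.5 FPKM in both Cal27-shGRK2 libraries, against 32.0, 32.1 and 31.4 FPKM in Cal27. SFN had 359 and 357 FPKM in Cal27-shGRK2, against 461, 514 and 458 FPKM in Cal27. DSP had 18.5 and 18.6 FPKM in Cal27-shGRK2, against 28.7, 31.1 and 28.1 FPKM in Cal27. The epithelial adhesion genes EPCAM and CDH1 lay the other way, EPCAM with 193 and 188 FPKM in Cal27-shGRK2 and 149, 130 and 140 FPKM in Cal27, and CDH1 with 105 and 99.2 FPKM in Cal27-shGRK2 and 66.8, 72.2 and 66.9 FPKM in Cal27. Of the fibroblast markers, 4 of 7 were measured, with sums of 4.376 to 4.462 FPKM in Cal27-shGRK2 and 4.351 to 4.707 FPKM in Cal27, mostly from COL1A1. Of the blood and endothelial markers, 2 of 7 were measured, CD68 and CDH5, with sums of 10.32 to 11.31 FPKM in Cal27-shGRK2 and 4.331 to 5.156 FPKM in Cal27. The part of these shifts in the results on Wnt genes was not tested.

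Wnt proteins are secreted, lipid-modified ligands that bind frizzled receptors. With the co-receptors LRP5 and LRP6 they stabilise beta-catenin, which acts with TCF and LEF factors on genes such as AXIN2. With ROR1, ROR2 or RYK they signal without beta-catenin, in cell polarity and migration. DKK1 blocks the first route by binding LRP5 and LRP6. In stratified epithelium Wnt signals act on basal progenitors and on the formation of hair and teeth.

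Among the members that passed the limma test, DKK1 and WNT7A have RefSeq promoter windows (GRCh38.p14) with bases that lie before every annotated transcript of the gene, and these bases are shown 5′ to 3′ on the gene's strand. Capitals mark the core TCF and LEF letters CTTTGA or CTTTGT on either strand. The DKK1 stretch is the 250 bases before its RefSeq start, at chr10:52314031-52314280 on the plus strand. The WNT7A stretch is 200 bases, at chr3:13880122-13880321 on the minus strand.
DKK1: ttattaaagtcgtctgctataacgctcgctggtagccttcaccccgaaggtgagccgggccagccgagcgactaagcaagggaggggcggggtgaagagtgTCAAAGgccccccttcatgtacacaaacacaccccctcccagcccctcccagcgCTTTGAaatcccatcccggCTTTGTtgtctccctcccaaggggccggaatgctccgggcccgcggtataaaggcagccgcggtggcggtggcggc
WNT7A: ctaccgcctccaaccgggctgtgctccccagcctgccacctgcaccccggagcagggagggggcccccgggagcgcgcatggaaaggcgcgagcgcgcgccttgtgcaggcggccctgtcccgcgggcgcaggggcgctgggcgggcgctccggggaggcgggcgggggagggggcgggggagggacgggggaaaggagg

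The DKK1 stretch held 3 matches, TCAAAG from 149 to 144 bases before the start, CTTTGA from 95 to 90 and CTTTGT from 76 to 71. Of 35116 RefSeq promoter windows of the same length, 22.8% held at least 1 match and 0.58% held 3 or more. The cutoff of 3 is the DKK1 count itself. The windows were not matched for composition or for lying outside annotated genes, so enrichment was not tested. The WNT7A stretch held 0, beside 19.3% of windows of its length with at least 1. Its GC content was 80%, against a median of 57.5% of windows of that length, and that of DKK1 was 62.8%, against 58%. Windows were matched for 6 of the 10 members, and the windows of WNT4, WNT5A, WNT5B and WNT10A, which begin inside the annotated gene, held 0 matches. A match is a description of letters, and these data do not show which start Cal27 cells use.

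In Cal27-shGRK2 cells the ligand WNT5B was 2.8-fold higher and WNT7A 1.37-fold higher, while WNT7B was 1.46-fold lower, by ratios of mean FPKM. The antagonists DKK1 and DKK3 and the receptor FZD6 were lower by 1.32-fold, 1.21-fold and 1.18-fold. WNT4 and WNT10A did not pass, and WNT5A and AXIN2 lay under the filter of a mean of 1 FPKM. Of the 8 members that reached the filter, 2 rose, 4 fell and 2 did not pass. Their median log2 fold change was -0.18, beside -0.01 over all 13377 genes tested. Of all genes tested 29.6% passed an adjusted p of 0.05, 15.0% higher (2008 genes) and 14.6% lower (1949 genes). After rescaling libraries to a common total the split was 2927 higher and 1575 lower. That split is over a larger set, since 14483 genes then reached the filter. The 2 groups' libraries did not overlap in 7 of the 8 members, beside 53.3% of all genes tested. These are two-sided limma tests on log2(FPKM + 1), and p-values were adjusted by Benjamini-Hochberg across the whole table of tested genes. In bulk libraries, fewer cells with a transcript and less transcript per cell cannot be told apart.

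**Figure D1:**
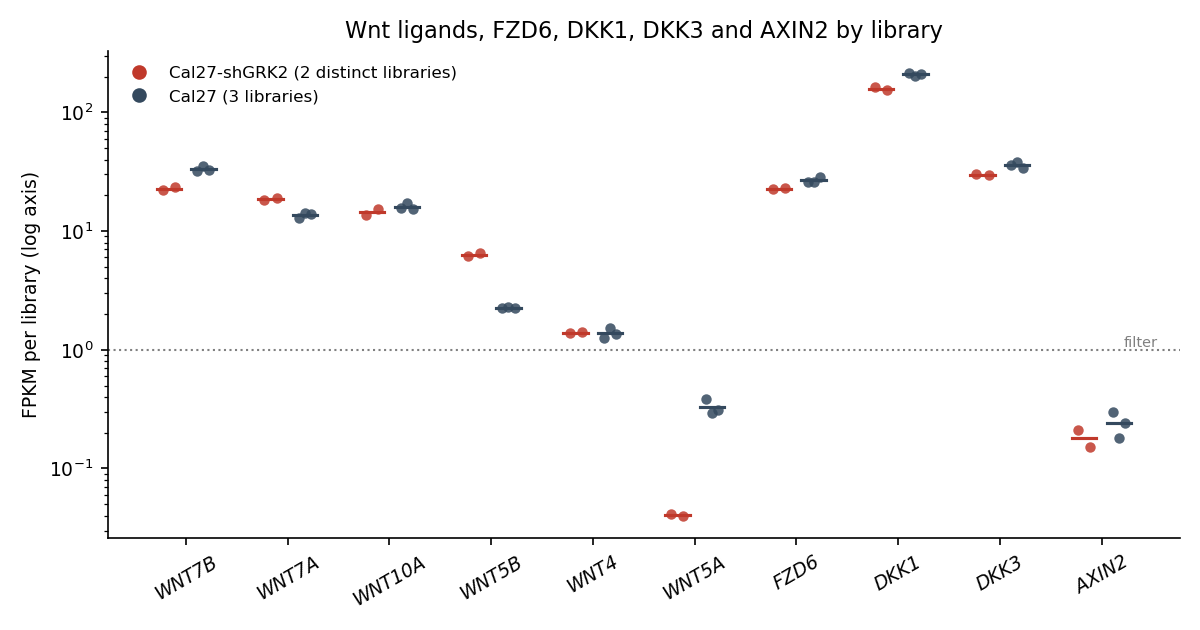
FPKM of each member in every library, on a log axis, with Cal27-shGRK2 to the left of Cal27 for each gene; points are libraries, bars are means, and the dotted line is the filter of 1 FPKM. WNT5B and WNT7A are higher in Cal27-shGRK2, WNT7B, DKK1, DKK3 and FZD6 are lower, and WNT4 and AXIN2 overlap.

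Among the ligands, WNT5B, which in vertebrates signals largely without beta-catenin, changed most of the tested members. It had 6.11 and 6.58 FPKM in Cal27-shGRK2, against 2.24, 2.29 and 2.26 FPKM in Cal27. Both Cal27-shGRK2 libraries lay far above all Cal27 libraries, with a log2 fold change of 1.17 ± 0.09 (SE, limma adjusted p = 9.8e-08). WNT5B is on chromosome 12 from 1529891 to 1647243 on the plus strand (GENCODE version 29, hg38), and FBXL14 overlaps it on the opposite strand. Its close paralog WNT5A, a ligand of ROR receptors, moved the other way at a very low level. WNT5A had 0.041 and 0.04 FPKM in Cal27-shGRK2, against 0.388, 0.292 and 0.31 FPKM in Cal27, with no overlap. WNT5A lies on chromosome 3 from 55465715 to 55490539 on the minus strand. Without the filter, where 21.9% of genes passed, its log2 fold change was -0.35 ± 0.08 (SE, limma adjusted p = 0.012), a scale that understates the change of so low a gene. The authors' deposited table gives WNT5A a log2 fold change of -3.18 with q = 6.1e-04, and marks it significant. The ratio of WNT5B to WNT5A was 149 and 165 in Cal27-shGRK2 and 5.77, 7.85 and 7.31 in Cal27 (two-sided exact permutation p = 0.1, the lowest that 10 splits allow). With WNT5A so low in Cal27-shGRK2 and the depth unknown, the size of the ratio there is uncertain.

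The pair of WNT7A and WNT7B, near relatives that can act through beta-catenin and are expressed in stratified epithelia, moved in opposite directions. WNT7A had 18.4 and 19 FPKM in Cal27-shGRK2, against 13, 14.1 and 13.9 FPKM in Cal27, and its log2 fold change was 0.42 ± 0.07 (SE, limma adjusted p = 2.8e-04). WNT7B had 22.2 and 23.4 FPKM in Cal27-shGRK2, against 32.3, 35 and 32.6 FPKM in Cal27, and its log2 fold change was -0.53 ± 0.07 (SE, limma adjusted p = 2.0e-05). Neither gene's groups overlapped. The ratio of WNT7A to WNT7B was 0.826 and 0.81 in Cal27-shGRK2 and 0.402, 0.402 and 0.428 in Cal27 (two-sided exact permutation p = 0.1, the lowest possible). WNT7A lies on chromosome 3 from 13816258 to 13880121 and WNT7B on chromosome 22 from 45920362 to 45977129, both on the minus strand.

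WNT10A, a ligand needed for teeth and other epithelial appendages, had 13.7 and 15.2 FPKM in Cal27-shGRK2, against 15.5, 17.1 and 15.3 FPKM in Cal27. The lower means came with ranges that nearly touched, and the log2 fold change of -0.13 had a 95% interval from -0.29 to 0.03 (limma adjusted p = 0.22). WNT10A lies on chromosome 2 from 218880363 to 218899581 on the plus strand. WNT4, known for its part in kidney and female reproductive tract development, had 1.39 and 1.4 FPKM in Cal27-shGRK2, against 1.26, 1.52 and 1.37 FPKM in Cal27. The Cal27-shGRK2 values lay inside the Cal27 range, with a 95% interval of the log2 fold change from -0.21 to 0.23 (limma adjusted p = 0.96). WNT4 lies on chromosome 1 from 22117305 to 22143969 on the minus strand.

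**Figure D2:**
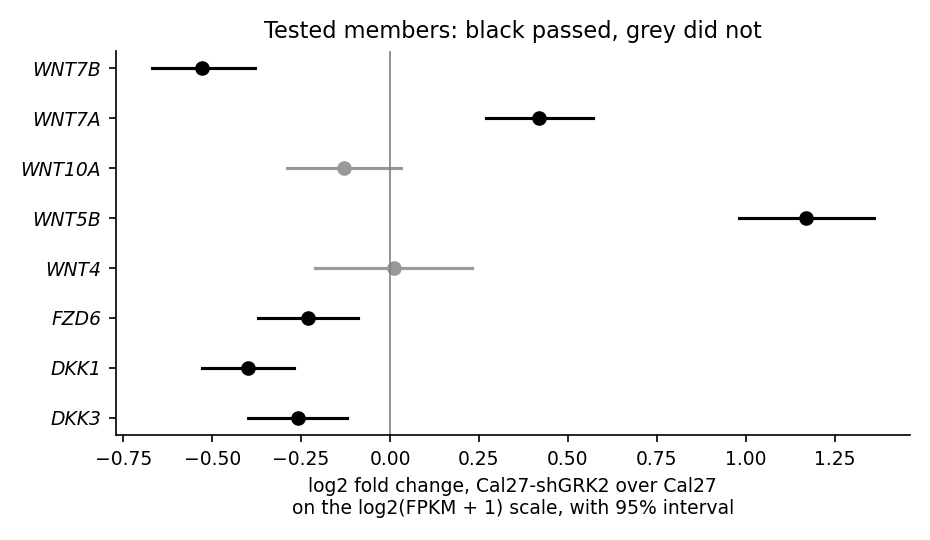
Log2 fold change, Cal27-shGRK2 over Cal27, on the log2(FPKM + 1) scale, of the 8 members that reached the filter, with 95% intervals; members in black passed the test and those in grey did not. WNT5B at 1.17 stands farthest from 0, and WNT7A and WNT7B lie on opposite sides.

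Because FPKM is scaled by transcript length, the ligands could be set beside each other. The 10 Wnt ligand genes measured summed to 65.7 and 69.4 FPKM in Cal27-shGRK2 and to 71.1, 76.4 and 71.9 FPKM in Cal27. WNT7B gave 33.8% of this sum in each Cal27-shGRK2 library and 45.5%, 45.9% and 45.3% in the Cal27 libraries. WNT7A gave 27.9% and 27.4% in Cal27-shGRK2 and 18.3%, 18.4% and 19.4% in Cal27, and WNT5B gave 9.3% and 9.48% in Cal27-shGRK2 and 3.15%, 3% and 3.15% in Cal27. WNT10A, with 20.9% and 22% in Cal27-shGRK2 and 21.7%, 22.4% and 21.3% in Cal27, kept overlapping shares. WNT10A averaged above WNT7A in Cal27 and below it in Cal27-shGRK2, and the ratio of WNT7A to WNT10A was 1.34 and 1.25 in Cal27-shGRK2 and 0.841, 0.825 and 0.908 in Cal27. For the sum, for the shares of WNT7A, WNT7B and WNT5B and for this ratio, the groups did not overlap, with an exact permutation p of 0.1, the lowest possible.

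**Figure D3:**
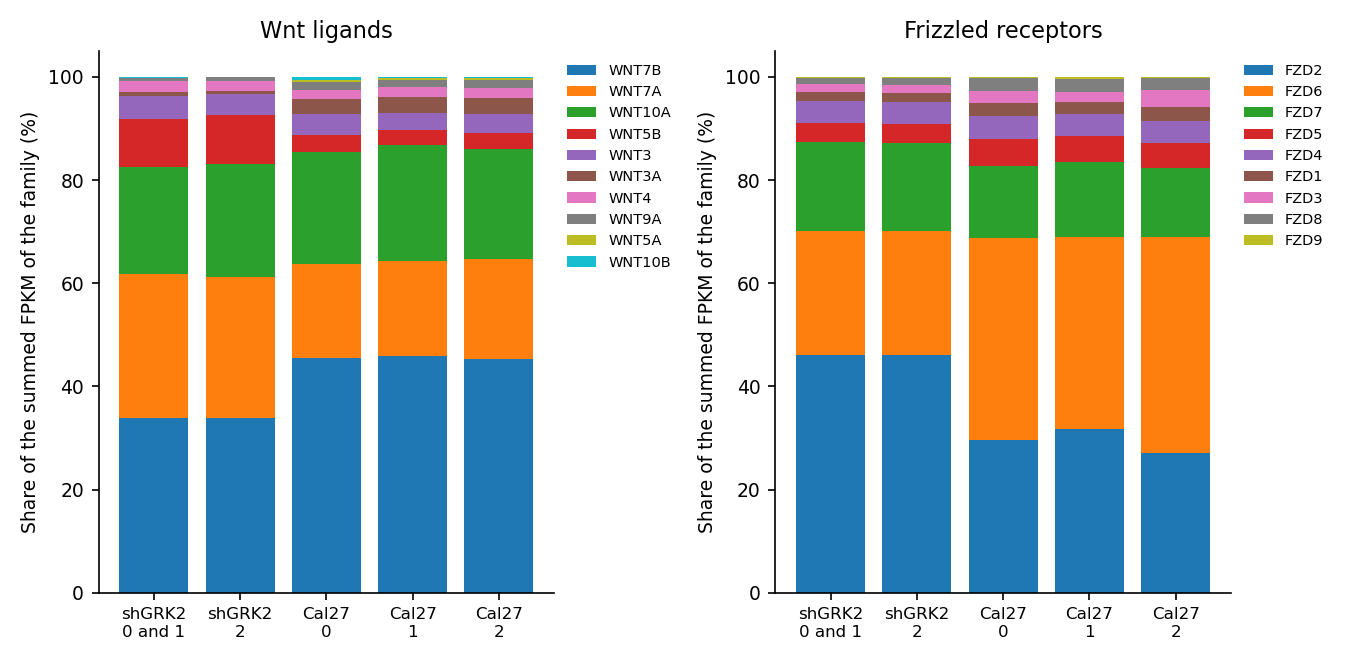
Share of the summed FPKM of the 10 measured Wnt ligands (left) and the 9 measured frizzled receptors (right) given by each gene, in each library, Cal27-shGRK2 first. WNT7B gives 33.8% of the ligand sum in each Cal27-shGRK2 library and 45.3% to 45.9% in Cal27, and FZD6 gives 24.1% of the receptor sum in each Cal27-shGRK2 library and 37.2% to 41.9% in Cal27.

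FZD6, a frizzled linked to planar polarity and to nail formation, had 22.4 and 23 FPKM in Cal27-shGRK2, against 25.8, 26.1 and 28.5 FPKM in Cal27. Its groups did not overlap, and the log2 fold change was -0.23 ± 0.07 (SE, limma adjusted p = 0.018). That call was lost without Cal27 replicate 2 (adjusted p = 0.1), without the single library of Cal27-shGRK2 replicates 0 and 1 (0.13), without Cal27-shGRK2 replicate 2 (0.078) and under rescaling to a common total (0.061), within a range of 0.0045 to 0.13 over the 14 alternatives. FZD6 lies on chromosome 8 from 103298433 to 103332866 on the plus strand, and BAALC-AS1 overlaps it on the opposite strand. The authors' deposited table gives it q = 0.051 and does not mark it. While FZD6 was lower, the sum over 9 frizzled genes was higher, at 92.9 and 95.2 FPKM in Cal27-shGRK2 and 65.9, 70 and 68 FPKM in Cal27. FZD6 therefore gave 24.1% of that sum in each Cal27-shGRK2 library, against 39.2%, 37.2% and 41.9% in Cal27, where it was the most abundant frizzled. For the sum and for the share of FZD6 the exact permutation p was 0.1, the lowest possible.

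FZD2 took that first place in Cal27-shGRK2. It averaged 43.3 ± 0.674 FPKM in Cal27-shGRK2 (SD, n = 2) and 20 ± 1.95 FPKM in Cal27 (SD, n = 3), a log2 fold change of 1.08 ± 0.08 (SE, limma adjusted p = 4.3e-08). FZD7, another receptor of the pathway, averaged 16.2 ± 0.215 FPKM in Cal27-shGRK2 and 9.5 ± 0.634 FPKM in Cal27 (log2 fold change 0.71, limma adjusted p = 3.5e-06). ROR1, a receptor tyrosine kinase that binds WNT5A, averaged 13.5 ± 0.121 FPKM in Cal27-shGRK2 and 6.1 ± 0.211 FPKM in Cal27 (log2 fold change 1.03, limma adjusted p = 5.7e-08). FZD4 rose by 0.33 on the log2 scale (limma adjusted p = 0.0097), a call lost without either Cal27-shGRK2 library (0.061 and 0.065). FZD4 overlaps PRSS23 on the opposite strand, and the authors' deposited table gives it q = 0.86. The co-receptors LRP5 and LRP6 did not pass, with 95% intervals of the log2 fold change from -0.16 to 0.14 and from -0.09 to 0.26. Of 13 tested receptors and co-receptors, 4 rose, 2 fell and 7 did not pass, where 15.0% of all genes tested were higher and 14.6% lower. Beside FZD6, the one that fell was FZD8, chosen for mention after its values were seen (log2 fold change -0.31, limma adjusted p = 0.039). The number lower was 0 when either Cal27-shGRK2 library was left out and under rescaling to a common total. It was 1 when any Cal27 library was left out and in both forms of the replicate block, in which FZD6 kept its call.

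DKK1 was the most abundant member in every library. It had 163 and 154 FPKM in Cal27-shGRK2, against 215, 201 and 212 FPKM in Cal27. The Cal27-shGRK2 libraries both lay below the Cal27 range, with a log2 fold change of -0.40 ± 0.06 (SE, limma adjusted p = 1.3e-04). DKK1 lies on chromosome 10 from 52314296 to 52318042 on the plus strand, where the antisense gene PRKG1-AS1 overlaps it. DKK3, a divergent relative whose role in Wnt signalling is less clear, had 30.3 and 29.6 FPKM in Cal27-shGRK2, against 36.1, 38.3 and 34.1 FPKM in Cal27. It fell by 0.26 on the log2 scale (limma adjusted p = 0.0078), also without overlap. DKK3 lies on chromosome 11 from 11963106 to 12009769 on the minus strand. Its call was lost without Cal27-shGRK2 replicate 2 (adjusted p = 0.077), within a range of 0.002 to 0.077, and the authors' deposited table gives q = 0.067. The ratio of DKK1 to DKK3 was 5.38 and 5.22 in Cal27-shGRK2 and 5.97, 5.24 and 6.24 in Cal27, with overlap (two-sided exact permutation p = 0.3).

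The kremens KREMEN1 and KREMEN2, receptors that bind DKK1 and act with it on LRP6, were lower together with it. KREMEN1 averaged 1.72 ± 0.136 FPKM in Cal27-shGRK2 and 4.42 ± 0.382 FPKM in Cal27 (log2 fold change -0.99, limma adjusted p = 1.5e-06). KREMEN2 averaged 4 ± 0.0496 FPKM in Cal27-shGRK2 and 8.48 ± 0.239 FPKM in Cal27 (log2 fold change -0.92, limma adjusted p = 3.3e-07). It overlaps PKMYT1 on the opposite strand, and the authors' deposited table gives it q = 0.16. Of 5 tested antagonists, 4 fell and 1 rose, where 14.6% of all genes tested were lower and 15.0% higher. Their median log2 fold change was -0.40, beside -0.01 over all genes tested. The members DKK1 and DKK3 are among the 4, and of the antagonists that are not members 2 fell and 1 rose. The gene that rose was TRABD2A, a membrane protease that inactivates Wnt proteins (log2 fold change 0.30, limma adjusted p = 0.018), and its call was lost without Cal27-shGRK2 replicate 2 (0.19). Under the filter, SFRP1, a secreted frizzled-like decoy, went against this direction, with 0.797 and 0.881 FPKM in Cal27-shGRK2 and 0.0311, 0.0584 and 0.0485 FPKM in Cal27. The authors' deposited table marks SFRP1 as significant, with a log2 fold change of 4.09, and also marks APCDD1, a membrane Wnt inhibitor, with -1.91.

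AXIN2, a scaffold of the beta-catenin destruction complex and a standard readout of beta-catenin activity, was barely transcribed. It had 0.21 and 0.152 FPKM in Cal27-shGRK2, against 0.3, 0.182 and 0.242 FPKM in Cal27. The groups overlapped, and no difference was detected (log2 fold change -0.07 ± 0.08 SE without the filter, limma adjusted p = 0.6). The authors' deposited table gives it q = 0.38. How small a difference could be seen at this level, with the depth unknown, was not tested. AXIN2 lies on chromosome 17 from 65528563 to 65561647 on the minus strand, and an annotated gene on the same strand, AC004805.1, overlaps it. The 3 tested genes whose deviations from their own mean over the 5 libraries lay nearest to those of AXIN2 were AK6, RNF8 and LENG1, at root-mean-square differences of 0.00598, 0.0138 and 0.0152 on the log2(FPKM + 1) scale. With 5 libraries and all tested genes searched, some genes lie near any pattern. This is a description and gives no link to AXIN2.

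In order of level, Cal27-shGRK2 cells had DKK1, DKK3, WNT7B, FZD6, WNT7A, WNT10A, WNT5B, WNT4, AXIN2 and WNT5A, from 159 ± 6.19 to 0.0405 ± 0.000749 FPKM (mean ± SD, n = 2). WNT7B and FZD6 were neighbours within their spread there. Cal27 cells had DKK1, DKK3, WNT7B, FZD6, WNT10A, WNT7A, WNT5B, WNT4, WNT5A and AXIN2, from 210 ± 7.83 to 0.241 ± 0.0594 FPKM (mean ± SD, n = 3). DKK3 and WNT7B overlapped there, as did WNT5A and AXIN2.

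Other genes of the pathway came from a list of 105 genes by role, of which 78 had values, 68 of them not members. Of 60 tested, members included, 14 were higher, 17 were lower and 29 did not pass, where 15.0% of all genes tested were higher and 14.6% lower. Their median was -0.03 on the log2 scale, beside -0.01 for all genes tested. Genes on the opposite strand with values of their own overlap CCND1, DVL1, LGR4, LRP6, CTNNB1, TCF7, TCF7L2, TRABD2A and WLS. The authors' deposited comparison marked 28 of the 78 and 5 of the 10 members, beside 15.4% of all genes. The 5 members are WNT5A, WNT5B, WNT7A, WNT7B and DKK1. Of the genes named here as higher or lower by limma, beside FZD4, FZD6, DKK3 and KREMEN2, the authors' deposited table leaves TCF7 (q = 0.67), TRABD2A (q = 0.95), TCF7L2 (q = 0.3), AXIN1 (q = 0.11), GSK3B (q = 0.19), LGR4 (q = 0.097) and VANGL1 (q = 0.17) unmarked.

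**Figure D4:**
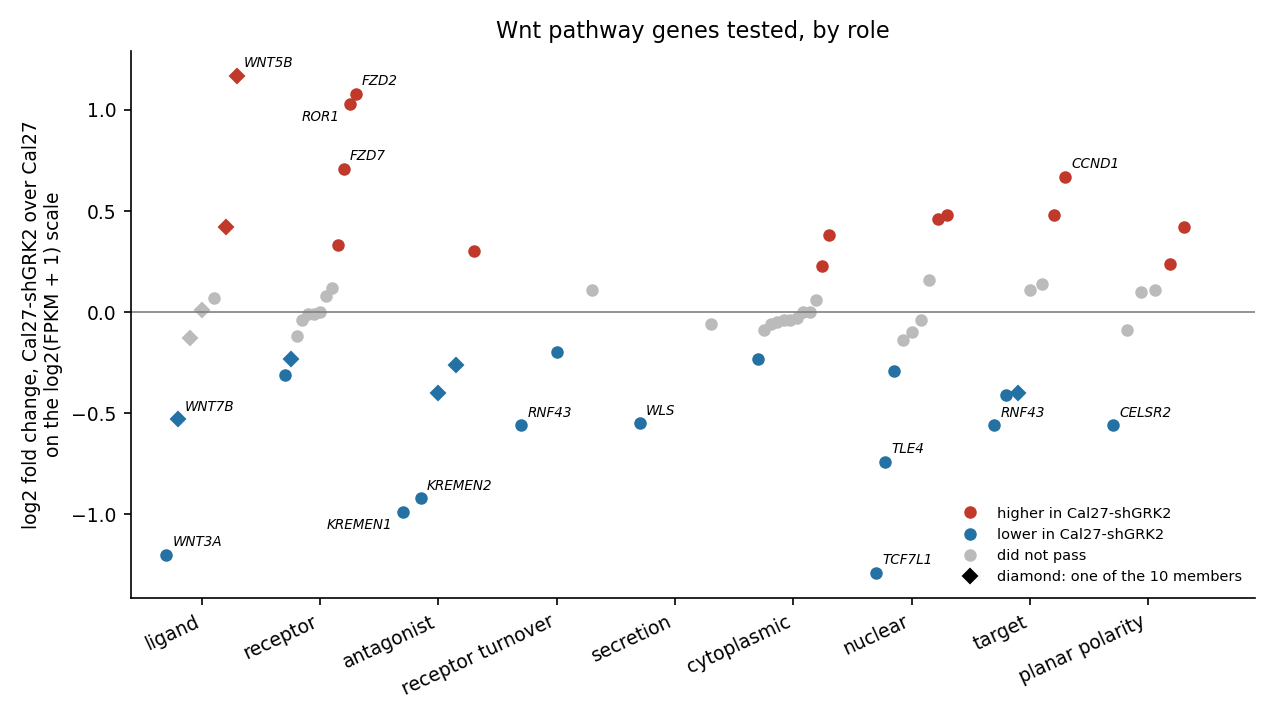
Log2 fold change, Cal27-shGRK2 over Cal27, on the log2(FPKM + 1) scale, of the 60 tested Wnt pathway genes by role; red points rose, blue points fell, grey points did not pass, and diamonds are the members. A gene with more than 1 role appears under each. FZD2, FZD7 and ROR1 stand out above the other receptors, and WNT3A and TCF7L1, which average under 1 FPKM in Cal27-shGRK2, lie lowest.

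Of 7 tested ligands, 2 rose and 2 fell, where 15.0% of all genes tested were higher and 14.6% lower. The largest fall was that of WNT3A, the classical beta-catenin ligand. WNT3A averaged 0.423 ± 0.00145 FPKM in Cal27-shGRK2 and 2.28 ± 0.11 FPKM in Cal27 (log2 fold change -1.20, limma adjusted p = 3.4e-07). Its Cal27-shGRK2 mean lay under 1 FPKM, so it reached the filter through Cal27 alone. Without the filter its limma adjusted p was 2.0e-05. WNT9A, under the filter, had 0.408 and 0.427 FPKM in Cal27-shGRK2, against 0.975, 1.11 and 1.07 FPKM in Cal27, and is marked in the authors' deposited table. Of the genes that carry Wnt out of the cell, WLS, the transport receptor of lipid-modified Wnt, averaged 11.2 ± 0.3 FPKM in Cal27-shGRK2 and 16.9 ± 0.647 FPKM in Cal27 (log2 fold change -0.55, limma adjusted p = 2.2e-05). PORCN, the enzyme that attaches the lipid, did not pass (log2 fold change -0.06, limma adjusted p = 0.66). Of the genes for receptor turnover, RNF43, a ubiquitin ligase that removes frizzled receptors, averaged 2.93 ± 0.275 FPKM in Cal27-shGRK2 and 4.8 ± 0.201 FPKM in Cal27 (log2 fold change -0.56, limma adjusted p = 2.2e-04). RNF43 overlaps SUPT4H1 on the same strand. LGR4, an R-spondin receptor, fell by 0.20 on the log2 scale (limma adjusted p = 0.029), a call lost without Cal27 replicate 2 (0.12), without the library of Cal27-shGRK2 replicates 0 and 1 (0.23) and without replicate 2 of that group (0.055), as well as under rescaling to a common total (0.069), limma without trend (0.067) and the replicate block with the repeated library as replicate 1 (0.067).

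Inside the cell, beta-catenin itself, CTNNB1, averaged 121 ± 6.3 FPKM in Cal27-shGRK2 and 121 ± 2.04 FPKM in Cal27, with a 95% interval of the log2 fold change from -0.13 to 0.12. Of 12 tested cytoplasmic genes, 2 rose, 1 fell and 9 did not pass, a share of calls near the 29.6% over all genes tested. DVL1, a dishevelled protein that relays the signal from frizzled, averaged 69.5 ± 1.74 FPKM in Cal27-shGRK2 and 53.3 ± 1.72 FPKM in Cal27 (log2 fold change 0.38, limma adjusted p = 2.3e-04). The kinase GSK3B (log2 fold change 0.23, limma adjusted p = 0.026) lost its call without Cal27 replicate 0 (adjusted p = 0.071) or replicate 2 (0.077). It also lost it without either Cal27-shGRK2 library (log2 fold change 0.25 and 0.20). The same held under limma without trend and not robust (adjusted p = 0.056) and the replicate block with the repeated library as replicate 1 (0.092). The scaffold AXIN1 (log2 fold change -0.23, limma adjusted p = 0.033) lost its call without Cal27 replicate 1 (adjusted p = 0.079) or replicate 2 (0.065). It also lost it without either Cal27-shGRK2 library (log2 fold change -0.20 and -0.26). The same held without the filter (adjusted p = 0.051) and under rescaling to a common total (0.051). Limma without trend and not robust (0.055) and the block with the repeated library as replicate 0 (0.072) lost it too. The dishevelled-binding antagonist NKD2, under the filter at 0.0575 and 0.0251 FPKM in Cal27-shGRK2 and 0.454, 0.324 and 0.179 FPKM in Cal27, is marked in the authors' deposited table.

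The nuclear factors moved in both directions, with 2 of 9 tested higher, 3 lower (TCF7L1, TLE4 and TCF7L2) and 4 not passing. Over all genes tested 15.0% were higher and 14.6% lower. TCF7L1, a TCF factor that mostly represses, averaged 0.674 ± 0.0113 FPKM in Cal27-shGRK2 and 3.11 ± 0.24 FPKM in Cal27 (log2 fold change -1.29, limma adjusted p = 1.3e-07). The Cal27-shGRK2 mean of TCF7L1 lay under 1 FPKM, so this gene reached the filter through Cal27 alone. Without the filter TCF7L1 was still called lower by limma, with the same log2 fold change. TCF7 averaged 5.33 ± 0.0271 FPKM in Cal27-shGRK2 and 3.54 ± 0.452 FPKM in Cal27 (log2 fold change 0.48, limma adjusted p = 0.0015). The corepressor TLE1 rose by 0.46 and its relative TLE4 fell by 0.74 (limma adjusted p = 1.0e-04 and 1.2e-05). The coactivator PYGO1, under the filter at 0.215 and 0.202 FPKM in Cal27-shGRK2 and 0.09, 0.0449 and 0.0448 FPKM in Cal27, is marked as higher in the authors' deposited table, although without the filter its limma adjusted p was 0.11.

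Of 7 tested target genes, 2 rose (CCND1 and TCF7), 3 fell (MYC, RNF43 and DKK1) and 2 did not pass. Those that did not pass were SP5 (log2 fold change 0.14, limma adjusted p = 0.41) and ZNRF3 (0.11, limma adjusted p = 0.51). TCF7, RNF43, DKK1 and ZNRF3 are also counted under another role. Over all genes tested 15.0% were higher and 14.6% lower. CCND1, the cyclin of G1 phase, averaged 273 ± 0.0615 FPKM in Cal27-shGRK2 and 171 ± 10.7 FPKM in Cal27 (log2 fold change 0.67, limma adjusted p = 9.9e-07). MYC averaged 66.5 ± 1.24 FPKM in Cal27-shGRK2 and 88.8 ± 3.41 FPKM in Cal27 (log2 fold change -0.41, limma adjusted p = 1.0e-04). Both genes also answer to other pathways. TNFRSF19, a receptor of the TNF family, lay just under the filter, with 1.94 and 1.82 FPKM in Cal27-shGRK2 and 0.18, 0.206 and 0.272 FPKM in Cal27, and is marked in the authors' deposited table with a log2 fold change of 3.11. Of 6 tested planar polarity genes, 2 rose, 1 fell and 3 did not pass, beside the same 15.0% higher and 14.6% lower. The cadherin CELSR2 averaged 2.37 ± 0.23 FPKM in Cal27-shGRK2 and 3.96 ± 0.407 FPKM in Cal27 (log2 fold change -0.56, limma adjusted p = 5.5e-04). The formin DAAM1 (0.42, limma adjusted p = 0.0021) lost its call without Cal27-shGRK2 replicate 2 (0.061). VANGL1 (0.24, limma adjusted p = 0.018) lost its call without Cal27 replicate 0 (0.065) and without either Cal27-shGRK2 library (log2 fold change 0.26 and 0.21). VANGL1 also lost it under limma without trend and not robust (adjusted p = 0.052) and in the block with the repeated library as replicate 1 (0.092). Its relative VANGL2, under the filter at 0.2 and 0.147 FPKM in Cal27-shGRK2 and 0.361, 0.404 and 0.353 FPKM in Cal27, is marked as lower in the authors' deposited table, although without the filter its limma adjusted p was 0.076.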

How the data were processed

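Messenger RNA of 6 labelled libraries was measured. The submitters' processing notes name Cuffdiff 2.2.1, TopHat2 2.1.0, Bowtie2 2.2.6 and the build hg38, with no role for each. Neither the annotation nor the strand setting of the counting is given in the sources used here, and without that setting reads of overlapping opposite-strand genes may be mixed. Per the file headers, the authors' deposited table has FPKM for every library and condition. It also has a log2 fold change, a test score, a p-value and a q-value for each gene, all deposited by the authors. A value of 0.0001 or less was read as 0. For ratios of low values between libraries, the fullest 0.02-wide log2 bin held 3.45% to 12.8% of genes. No expected share was set, so this cannot settle whether low values fall on common steps. The depth behind a value is thus unknown, and counting error could not be given. The summed FPKM was 590163 to 644831 per library.

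The fit took genes whose mean over the 5 distinct libraries reached 1 FPKM, on the log2(FPKM + 1) scale, with limma 3.58.1 (R 4.3.3, trend, robust, 3 residual degrees of freedom), two-sided, with Benjamini-Hochberg adjustment and a threshold of 0.05; the script was tested on simulated data. Sums, shares and ratios were tested by exact permutation. Members and lists were chosen with earlier results of these data known. Named genes are the members, up to 4 passing genes per role without overlap, and genes under the filter that the authors mark; others are given for context and were chosen after their values were seen. The main fit did not take the replicate numbers as pairs. Of 18678 identifiers, 18503 were found in GENCODE version 29. Alternatives changed the pseudocount, filter, scaling, variance model, replicate block and libraries.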

Additional observations from a re-analysis of the deposited data

How the results depend on the processing

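The calls of WNT5B, WNT7A, WNT7B and DKK1 were the same in every alternative that could be run, as was that of GRK2, and none of the called genes refitted singly (those named in the text other than FZD8 and TCF7L2) changed direction. WNT5B could not be tested with a mean of at least 5 FPKM, which leaves 1 member higher, against 2. Leaving out 1 library gave 2 to 4 members lower, with 2 without Cal27-shGRK2 replicate 2, where FZD6 and DKK3 were lost. It gave 2600 to 4028 genes called of all, 1218 to 2205 higher and 1088 to 1843 lower, with 2600 in all and 1088 lower without the single library of Cal27-shGRK2 replicates 0 and 1, and 1218 higher without replicate 2. The cause was not tested, though fewer libraries leave fewer degrees of freedom. After rescaling to a common total, 2927 of 14483 genes tested were higher and 1575 lower, against 2008 and 1949 of 13377. The replicate block left 6 members called in both forms, with 3960 genes called with the repeated library as replicate 0 and 3481 as replicate 1. Deviations of same-numbered libraries correlated at 0.08 for replicate 0 and 0.02 for replicate 2, and at -0.07 with the repeated library as replicate 1. With 2 distinct Cal27-shGRK2 libraries their deviations mirror each other, so these values cannot settle whether the numbers are pairs. The main fit used no pairing. Chosen after seeing the data, an additional Cal27-shGRK2 library was computed as 3 times the authors' condition value minus the 2 distinct columns, since the authors' Cal27 value equalled the mean of its columns in 13383 of 13383 genes and the Cal27-shGRK2 value in 52, within a relative tolerance of 0.0001; it left 6 members called. Values under 1 FPKM limit what can be said of WNT5A and AXIN2: at a pseudocount of 0.1 their log2 differences were -1.61 and -0.27.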
